A study of Mus musculus with 3 samples.

Results

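The 10 genes described here encode heat shock proteins and their co-chaperones: Hspa1a, Hspa1b, Hspa5, Hspa8, Hsp90aa1, Hspd1, Hsph1, Dnaja1, Dnajb1 and Bag3. They were taken as every probe set (the group of short probes that reports a gene on an Affymetrix array) that carries one of these symbols alone in the platform annotation. This gave 13 of 12422 probe sets and 10 of 8251 genes. The signals come from 3 arrays, 1 per group, of total RNA from frozen lung: a B16-bearing lung, an LLC-bearing lung and a normal control lung. B16 is a line of mouse melanoma cells and LLC one of Lewis lung carcinoma, also of the mouse; the cells were placed under the skin of the back. The design stands for a lung that reacts to a distant primary tumour before cells of that tumour arrive. The sources used here do not give strain, age, time after injection or the number of mice behind each array. With 1 array per group there is no replicate error and no test, so the differences speak of these 3 arrays only.

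Heat shock proteins are chaperones that bind unfolded or partly folded proteins and keep them from aggregating. Hsp70 proteins work in a cycle of ATP binding and hydrolysis: J-domain proteins deliver the client and trigger hydrolysis, and nucleotide exchange factors such as Hsp110 and BAG proteins release it again. Hsp90 acts later, on clients such as steroid receptors and kinases. Under heat or other proteotoxic stress the transcription factor HSF1 binds heat shock elements, which are inverted repeats of a short unit, and induces the stress-responsive members, while Hspa8 and much of the Hsp90 system are also expressed without stress. The chaperone of the endoplasmic reticulum, Hspa5, is induced through the unfolded protein response instead.

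No member differed by at least 2-fold between any pair of arrays, where 6.93% to 8.36% of all measured genes did. Under other scalings, given below, Dnajb1 passed 2-fold in the LLC-bearing lung and Bag3 between the tumour-bearing lungs. In the B16-bearing lung Hsph1 exceeded control by 1.45-fold and Dnaja1 was 1.5-fold lower. Bag3 exceeded it by 1.41-fold on its brighter probe set (0.50 on the log2 scale) but not on its second (−0.37), and by 0.06 as the mean of both. In the LLC-bearing lung Dnajb1 was lower by 1.996-fold, just short of 2-fold, and most other members lay close to control. The inducible genes Hspa1a and Hspa1b were not above control in the B16-bearing lung, and of the 10 genes as many lay below as above it there. The median log2 difference of the members was 0.01 in the B16-bearing lung against control, 0.02 in the LLC-bearing lung against control and 0.16 in the B16-bearing against the LLC-bearing lung. Over all measured genes these medians were −0.007, 0 and −0.023.

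Regulatory sequence upstream of the members is shown first, because heat shock elements are the letters that HSF1 binds. RefSeq promoter windows (assembly GRCm38.p6) were found for 8 of the 10 members, and the 250 bases before the annotated start were searched on both strands; entries for Hspa8 and Hsp90aa1 were not among them. Capitals mark the inverted repeat of the heat shock unit, written GAANNTTC or TTCNNGAA, and for Hspa5 the endoplasmic reticulum stress element, CCAAT and CCACG with 9 bases between them. Either motif counts wherever it overlaps another. The stretches run 5′ to 3′ on the strand of the gene, all upstream of the start. Hspa1a lies at chr17:34972227-34972286 (minus strand), Hspa1b at chr17:34959309-34959368 (minus), Hspd1 at chr1:55088038-55088097 (minus), Hsph1 at chr5:149636337-149636395 (minus), Dnaja1 at chr4:40722318-40722377 (plus) and Hspa5 at chr2:34772004-34772063 (plus).
Hspa1a: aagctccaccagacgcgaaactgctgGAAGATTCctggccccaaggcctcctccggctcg
Hspa1b: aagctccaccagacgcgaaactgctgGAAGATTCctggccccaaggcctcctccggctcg
Hspd1: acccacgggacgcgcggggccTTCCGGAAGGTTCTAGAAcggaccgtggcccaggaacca
Hsph1: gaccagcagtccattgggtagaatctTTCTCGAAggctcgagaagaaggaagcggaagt
Dnaja1: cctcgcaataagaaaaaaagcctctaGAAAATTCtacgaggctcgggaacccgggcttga
Hspa5: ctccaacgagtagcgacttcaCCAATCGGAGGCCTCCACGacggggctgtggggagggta

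The arrangement GAANNTTC was present upstream of 4 of the 8 member genes (Hspa1a, Hspa1b, Dnaja1 and Hspd1), against 7.73% of 27025 genes in the table. TTCNNGAA was present upstream of Hspd1 and Hsph1, against 8.11% of genes. In Hspd1 the arrangements overlap, so that the capitals hold 2 overlapping runs of 3 alternating units, each unit being GAA or TTC. Such a run was upstream of 0.514% of genes. The stress element of Hspa5 was upstream of 0.130% of genes. For Bag3 and Dnajb1 the searched letters of the heat shock unit are not in these windows. Hspd1 and Dnaja1 carried their match at 1 of several annotated starts. Hspa1a and Hspa1b, neighbouring copies in the genome, were identical at 247 of the 250 upstream bases and at all 60 printed bases. Matches describe the letters only; no binding was measured in these samples.

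**Figure D1:**
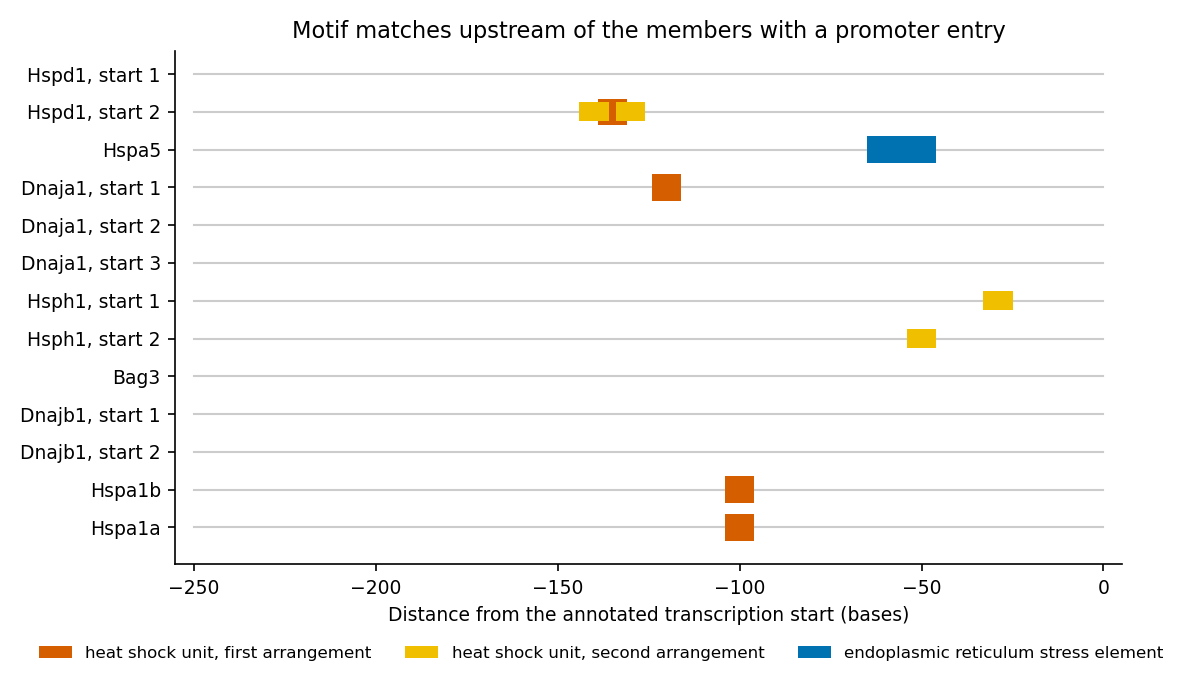
Positions of motif matches in the 250 bases before each annotated transcription start (x axis, bases from the start; 0 is the start) for the 8 members with a promoter entry, 1 line per start site. Orange and yellow blocks are the inverted repeats GAANNTTC and TTCNNGAA of the heat shock unit. The blue block is the endoplasmic reticulum stress element of Hspa5. Hspa1a and Hspa1b have their match at the same distance.

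A signal is the deposited intensity after scaling by 1 factor per array (0.987 for B16, 1.012 for LLC and 1 for control, the order of arrays used for all values given by 3), and a floor of 23.6 was set under all signals. The brightest probe set of each of the 10 genes was above this floor on all 3 arrays. All 9 lung epithelial and endothelial markers with a probe set were above it on every array, with summed signals of 22187, 21320 and 19374. Other cell types differed more: summed signals of hepatocyte markers were 501, 4355 and 556, of neutrophil markers 3021, 4525 and 1447, of B lymphocyte markers 351, 429 and 856, and of cardiac and skeletal muscle markers 1405, 1218 and 2586. S100a8 (1224, 1810 and 484.7) and S100a9 (866.3, 1684 and 304.6) carried most of the neutrophil sums. The median log2 difference of the 9 measured neutrophil markers from control was 0.81 with B16 and 0.88 with LLC. Lcn2 differed by 0.12 and 0.51 and Cxcr2 by 0.07 and 0.88. The part of all these cell types in the chaperone signals was not tested. In bulk tissue, fewer cells of a type and less RNA per cell cannot be told apart. The 3′ over 5′ ratio of control probe sets, which rises as RNA degrades, was highest on the B16-bearing array, for beta-actin (1.56, 1.47 and 1.44) and for Gapdh (1.2, 1.0 and 0.96).

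Hspa1a and Hspa1b encode the stress-inducible cytosolic Hsp70. Signals of Hspa1a reached 168.5 in the B16-bearing lung, 177.3 in the LLC-bearing lung and 224.3 in the control lung. Both tumour-bearing lungs were thus below control, by 1.33-fold and 1.26-fold (log2 differences of −0.41 and −0.34). Those of Hspa1b were 228.7, 328.8 and 304.3 in the same order. Here the B16-bearing lung alone was low, by 1.33-fold against control (−0.41), while the LLC-bearing lung was 1.08-fold higher (0.11). The genes were therefore alike in the B16-bearing lung and lay on opposite sides of control in the LLC-bearing lung. The copies are closely similar and probes of either may bind RNA of the other, so the split between them is uncertain.

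Hspa8, the constitutive cytosolic Hsp70, had signals of 1586 in the B16-bearing lung, 1332 in the LLC-bearing lung and 1324 in the control lung. The B16-bearing lung was 1.20-fold above control (0.26), and the other arrays were nearly equal (0.01). Hspa5, known as BiP or GRP78, the Hsp70 of the endoplasmic reticulum, had signals of 659.2, 754.3 and 696.2 in the same order. Its largest ratio between arrays was 1.14-fold, between the LLC-bearing and the B16-bearing lung. Hspd1, the mitochondrial chaperonin Hsp60, was the steadiest member, with 652.5, 621.0 and 611.1 and a largest ratio of 1.07-fold. Its second probe set, with probes chosen under relaxed rules, gave 98.43, 78.81 and 82.70, again highest in the B16-bearing lung (0.25 against control).

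Hsp90aa1 encodes the inducible cytosolic Hsp90 alpha. Its signals were 1435, 1178 and 1191, which is 1.21-fold above control in the B16-bearing lung (0.27) and close to control in the LLC-bearing lung (−0.02). A second probe set never exceeded the floor and gives no difference. Hsph1, the Hsp110 that serves Hsp70 as a nucleotide exchange factor, was likewise highest in the B16-bearing lung. Its signals were 445.1, 323.0 and 306.8, so the B16-bearing lung was 1.45-fold above control (0.54) and 1.38-fold above the LLC-bearing lung (0.46).

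**Figure D2:**
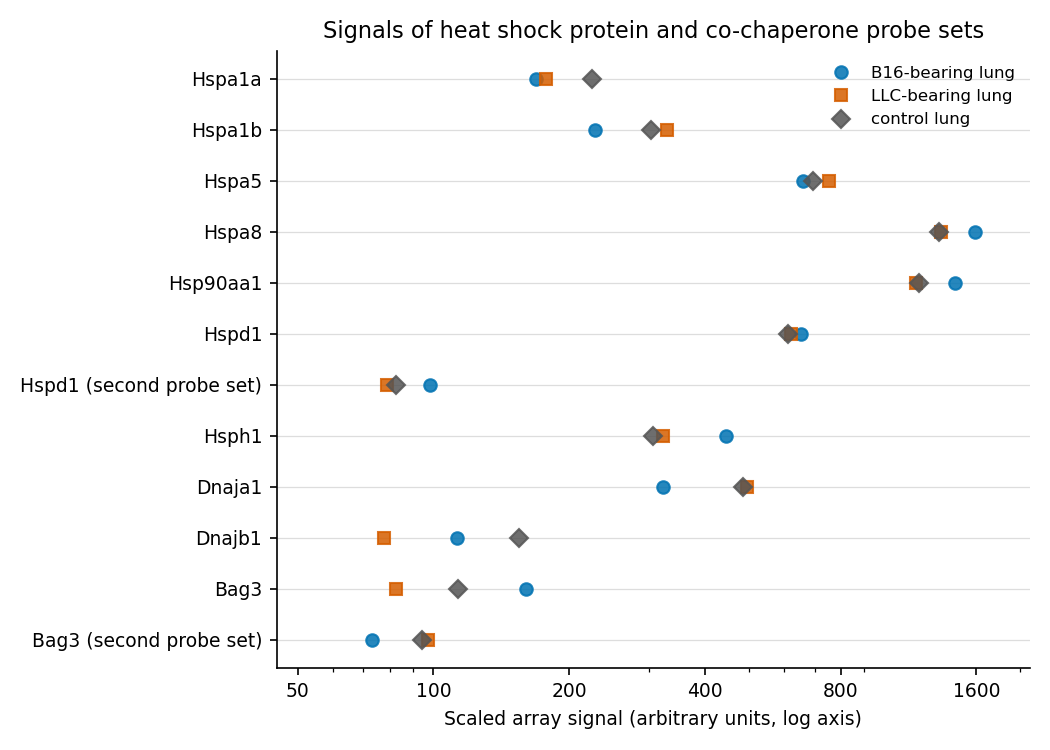
Scaled signal (x axis, arbitrary units, log axis) of the 12 member probe sets above the floor, on the B16-bearing (blue circle), LLC-bearing (orange square) and control array (grey diamond); levels are to be compared within a line only. The B16-bearing lung is highest for Hspa8, Hsp90aa1 and Hsph1 and lowest for Hspa1b and Dnaja1, and the order of the arrays for Bag3 turns between its probe sets.

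Dnaja1 and Dnajb1 were below control in the B16-bearing lung. Dnaja1, an Hsp40 of the cytosol that recruits clients to Hsp70, had signals of 323.0 in the B16-bearing lung, 495.9 in the LLC-bearing lung and 485.2 in the control lung. The B16-bearing lung was low, 1.5-fold below control (−0.59) and 1.54-fold below the LLC-bearing lung (−0.62), and the LLC-bearing lung differed little from control (0.03). Dnajb1, the stress-inducible Hsp40 that works with Hsp70, had signals of 112.8, 77.59 and 154.9. Both tumour-bearing lungs were below control, the LLC-bearing lung by 1.996-fold (−1.0) and the B16-bearing lung by 1.37-fold (−0.46). Of all measured genes, 6.98% differed by as much between the LLC-bearing and control lung. The LLC-bearing difference of Dnajb1 passes 2-fold with the array factors left out, with factors from the medians of the arrays, or with quantile normalization (−1.01 in the latter pair), and it is −0.63 with a floor of 100.

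Bag3 encodes a BAG-domain co-chaperone of Hsp70 that is induced by stress and takes part in the autophagy of damaged proteins. On its brighter probe set the signals were 160.1 in the B16-bearing lung, 82.45 in the LLC-bearing lung and 113.5 in the control lung. That places the tumour-bearing lungs on opposite sides of control (0.50 and −0.46) and 1.94-fold apart (0.96). On the second probe set, whose name marks a family of related sequences, the signals were 73.05, 97.32 and 94.60. There the B16-bearing lung was the lowest (−0.37 against control) and the LLC-bearing lung was near control (0.04). The probe sets of Bag3 therefore disagreed in direction, and the mean of both gave 0.27 for the B16-bearing against the LLC-bearing lung.

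Counted against control, 5 of the 10 members were higher and 5 lower in the B16-bearing lung, where 49.3% of 5968 measured genes were higher. In the LLC-bearing lung 6 were higher and 4 lower, with 49.9% of 6000 genes higher. At least 2-fold different were 0 members in either comparison, beside 7.96% and 6.93% of all genes. With 1.5-fold, a threshold chosen after the values were seen, 1 member was lower in each, Dnaja1 in the B16-bearing lung (13.7% of genes were lower by that much) and Dnajb1 in the LLC-bearing lung (9.07%). These comparisons share the control array, so an error of that array enters both. Between the tumour-bearing lungs 0 members differed by 2-fold (8.36% of 5984 genes), while Bag3 was at least 1.5-fold higher in the B16-bearing lung (9.14% of genes) and Dnaja1 at least 1.5-fold lower (12.8%). The shares of members are near these backgrounds. Dnaja1 lay at the edge of 1.5-fold against control. With factors from the medians of the arrays its B16-bearing signal was −0.48 from control and −0.49 from the LLC-bearing lung, both short of 1.5-fold. The B16-bearing lung had the highest signal for 5 members and the lowest for 4, the LLC-bearing lung for 3 and 3, and the control lung for 2 and 3. These ranks were not counted over all genes, so they have no background to be read against. Some rest on nearly equal signals, such as those of Hspd1, whose largest ratio between arrays was 1.07-fold.

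The spread of log2 differences among probe sets of like brightness gives the only scale for these values. Its robust SD (the scaled median absolute deviation) between the B16-bearing and control lung was 0.28 for signals of at least 400 and 0.44 from 100 to 200; between the LLC-bearing and control lung it was 0.21 and 0.33. It holds real differences as well as noise. Dnaja1 in the B16-bearing lung lay at −2.08 such SD from control, Dnajb1 in the LLC-bearing lung at −3.02, and Hsph1 in the B16-bearing lung at 1.53. Brightness was the mean of the 3 signals, although Dnaja1 had only 323.0 with B16 and Dnajb1 only 77.59 with LLC. In the next lower ranges the SD was larger, 0.352 from 200 to 400 with B16 and 0.447 from 50 to 100 with LLC. Between the tumour-bearing lungs the B16-bearing minus LLC-bearing difference of Bag3 was 2.41 SD on its brighter probe set and −0.82 SD on its second. That of Dnaja1 was −2.36 SD. Hspa8, Hsp90aa1, Hspd1 and Hspa5 were within 1.08 SD in all 3 comparisons.

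**Figure D3:**
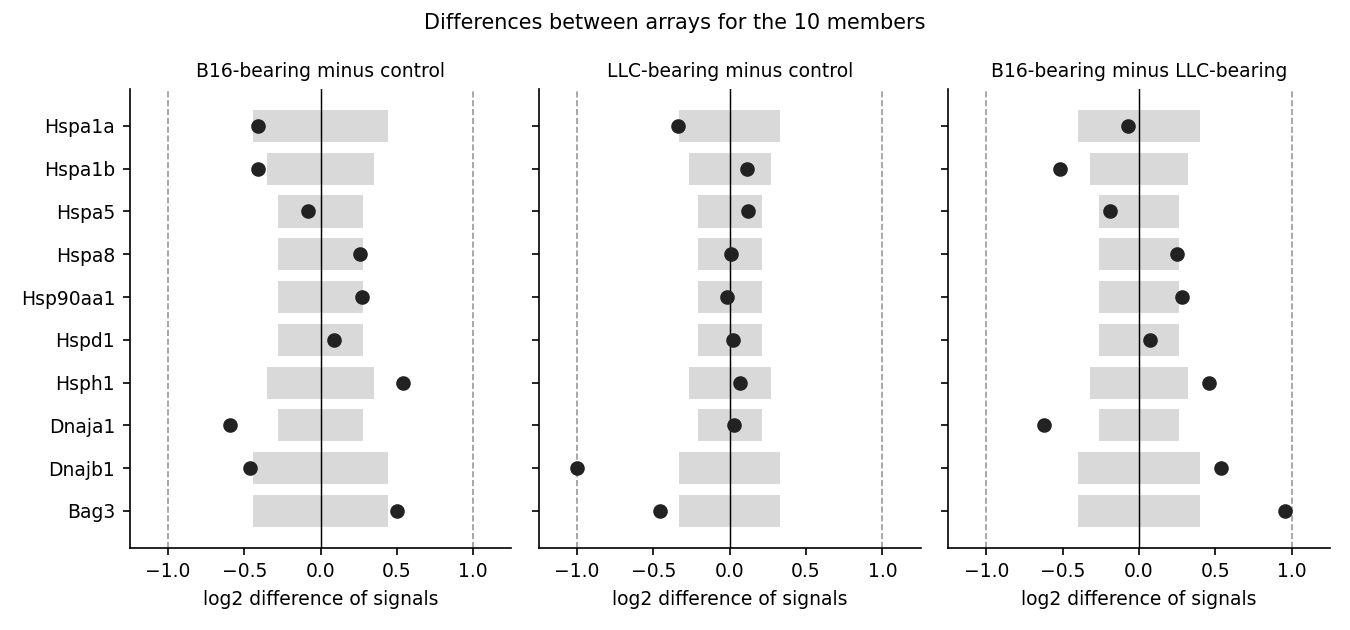
Log2 difference of signals (x axis) of each member's brightest probe set in the 3 comparisons; grey bars span 1 robust SD of all probe sets of like brightness on either side of 0, dashed lines mark 2-fold. Against control in the LLC-bearing lung Dnajb1 and Bag3 lie below the bar and Hspa1a lies at its lower edge. In the B16-bearing lung Hsph1 and Bag3 lie above the bar, and Dnaja1, Hspa1b and Dnajb1 below it. The second probe set of Bag3 is not drawn and gave −0.37 with B16 and 0.04 with LLC.

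Dnajb1 had the largest mean difference from control of the 10. Among 5136 genes above the floor on all 3 arrays, the 5 with the most similar pair of differences from control were Pdlim7, Rnf5, Jph3, Nicn1 and Hikeshi. Their distances to Dnajb1 on the log2 scale were 0.032 to 0.088. The likeness rests on 3 arrays that share 1 control.

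The chaperones outside the 10 were described by lists. Of the other cytosolic Hsp70, J-domain and BAG genes, 19 of 27 could be compared between the B16-bearing and control lung, with 9 higher, 10 lower and a median of −0.03. In the LLC-bearing lung 6 of 18 were higher and the median was −0.10. Dnajb4, a J-domain protein, was the list's only gene with a 2-fold difference: its signals were, with B16, LLC and in control, 44.92, 84.37 and 105.5, a B16-bearing signal 2.35-fold under control (−1.23). It thus shared with Dnaja1 and Dnajb1 a B16-bearing signal below control. The other measured J-domain genes of the lists went both ways. Dnajb6 (−0.41), Dnajc2 (−0.03), Dnajb9 (−0.84) and Dnajb11 (−0.66) were also below control. For Dnajb9 this was the brighter probe set, and the other gave −0.11. Dnaja2 (0.05), Dnaja3 (0.12), Dnajb2 (0.18), Dnajc3 (0.07), Dnajc5 (0.22), Dnajc7 (0.08) and Dnajc8 (0.15) were above it. Hspa4, an Hsp110 related to Hsph1, was 0.45 higher in the B16-bearing lung on its brightest probe set (470.6 against 345.6) and −0.26 on the next (70.78 against 84.50).

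Of 11 measured Hsp90 co-chaperones 8 had the higher signal with B16 rather than LLC (47.7% of all genes did), 5 of them by at least 1.5-fold (9.14% of all genes), and 0 were lower by that much; the median was 0.12, or 0.24 with factors from the medians of the arrays. The 5, named after their values were seen, were Tomm34, Ppp5c, Stip1, Fkbp5 and Unc45a. Unc45a (60.12, 37.73 and 55.30) and Ppp5c were dim, under a signal of 100 on all arrays. Against control, 8 of the 11 co-chaperones were higher with B16 (49.3% of all genes were) and 3 with LLC (49.9%). The medians against control were 0.12 with B16 and −0.20 with LLC, the latter −0.09 with a floor of 100. Tomm34, a co-chaperone of mitochondrial import, had signals of 206.0, 79.21 and 140.2 in this order of arrays, so the tumour-bearing lungs were 1.38 apart on the log2 scale and on either side of control. Stip1, the adaptor HOP that passes clients from Hsp70 to Hsp90, had 220.1, 118.2 and 126.6, and differed from control by 0.80 with B16 and by −0.10 with LLC. Its order of arrays was that of Hsp90aa1, whose LLC-bearing and control signals were nearly equal (−0.02). Ppp5c, a phosphatase bound to Hsp90, had 84.70, 45.12 and 60.80. Fkbp5, an immunophilin of steroid receptor complexes whose gene is induced by glucocorticoids, had 322.6 and 192.0 against 24.60 in the control lung, close to the floor. It was the list's only gene at least 2-fold from control, while Fkbp4, its relative, was 0.08 and 0.15 above control on its brightest probe set and 0.46 and 0.16 on another of similar brightness.

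Chaperones of the endoplasmic reticulum and genes of the unfolded protein response had medians near 0 against control. Of 19 measured, 7 were higher and 12 lower in the B16-bearing lung, with a median of −0.04 (−0.20 with the probe sets of a gene averaged), and 9 higher and 10 lower in the LLC-bearing lung, with a median of −0.03. Manf, a secreted protein of the endoplasmic reticulum, was low in the B16-bearing lung alone, with signals of 42.85, 117.4 and 119.8 (2.80-fold below control). Hsp90b1, the Hsp90 of the endoplasmic reticulum, had 1188, 1065 and 997.4 and was 0.25 and 0.09 above control. Of 8 measured mitochondrial chaperones and proteases, 6 lay above control with B16 and 3 with LLC, with medians of 0.08 and −0.07. Hspe1, the Hsp10 partner of Hspd1, had 432.4, 390.5 and 379.8, the same order as the brighter probe set of Hspd1. On that probe set the LLC-bearing and control lung were nearly equal (0.02), and on the second the LLC-bearing lung was lowest. Grpel1, an exchange factor of the mitochondrial Hsp70, differed most from control, with 45.51, 44.51 and 72.70.

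Subunits of TRiC, the cytosolic chaperonin, and of prefoldin had medians of −0.14 with B16 (−0.37 with the probe sets of a gene averaged) and 0.03 with LLC against control over 13 measured genes. In the B16-bearing lung 5 were at least 1.5-fold lower than control (13.7% of all genes). Cct4, a TRiC subunit, had 176.0, 299.6 and 363.9 and was 2.07-fold below control in the B16-bearing lung. Pfdn6, a prefoldin subunit, had 92.50, 224.3 and 148.3, so the tumour-bearing lungs lay on either side of control (−1.28 between them). Among small heat shock proteins 3 of 8 were measured. Hspb2, a muscle small heat shock protein, had 239.6, 139.3 and 208.1, Hspb8, a partner of Bag3, 217.0, 149.7 and 151.9, and Cryab, alpha-B crystallin, 184.6, 255.9 and 292.7; the other probe set of each never exceeded the floor. Muscle markers were highest on the control array, 11 of 14 above the floor there against 8 and 8, with Myl2, Ckm and Acta1 below it throughout; their part in Hspb2 and Cryab was not tested.

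Of 6 listed heat shock factors and regulators, 3 had a probe set that carries their symbol alone. Hsf1 was not among them, so its signal is not known here. Hsf2 and Hsf4 were below the floor on all 3 arrays, and Hsbp1, a protein that binds HSF1, had 75.03, 82.45 and 99.90. Cirbp, an RNA-binding protein induced by mild cold, had 299.1, 298.3 and 351.3, −0.23 and −0.24 from control. Immediate early genes, which respond to acute stress and to tissue handling, had medians of 0.15 and 0.12 against control over 11 genes. Fos was 0.77 and 0.46 higher, and Egr1, low on all arrays, had no signal above the floor with B16, 59.08 with LLC and 36.00 in the control lung.

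**Figure D4:**
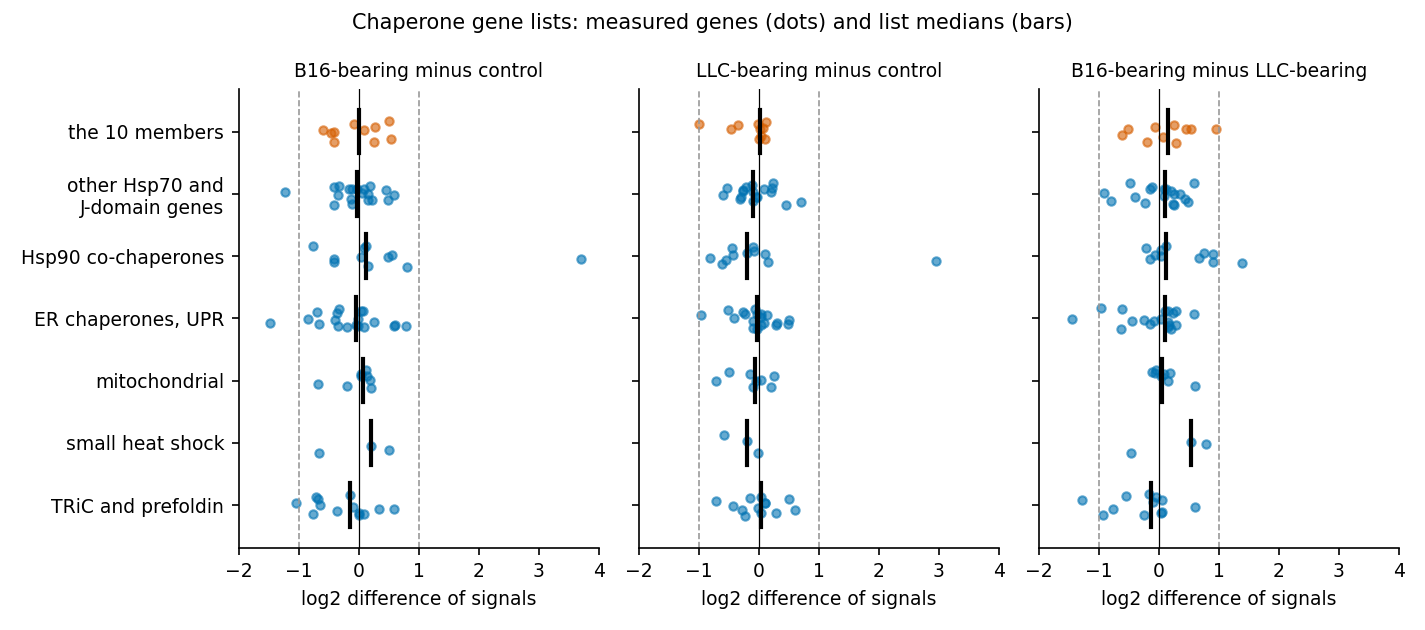
Log2 difference of signals (x axis) of every measured gene (dots, jittered vertically) and the median (black bars) for the 10 members and 6 further chaperone lists in the 3 comparisons; ER is the endoplasmic reticulum and UPR the unfolded protein response, dashed lines mark 2-fold. All list medians against control lie between −0.20 and 0.20, and the far dot among Hsp90 co-chaperones is Fkbp5.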

How the data were processed

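Lung RNA was measured on 3 arrays, 1 per group. Per the labels' protocols, TRIzol RNA was made into biotinylated cRNA for Affymetrix arrays; the sources used here name no array software or summarisation. Deposited was 1 linear intensity per probe set and array, negative where background exceeded signal. Arrays carry no read depth; their number limits the precision. Names came from GEO's platform annotation; 10 of 10 member symbols matched RefSeq by gene ID.

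Of 12488 probe sets, 66 controls were left out. Arrays were scaled by 1 factor each, chosen so that probe sets brighter than the median had a median log2 ratio of 0 against control. Signals under the 40th percentile of all values (23.6) were set to it before log2. A gene, represented by its brightest probe set, counted as measured where at least 1 array of the comparison was above this floor. Genes at least 2-fold different were counted. No test was possible. The steps were tested on simulated data, with changes planted only in probe sets brighter than those of Dnajb1 and Bag3. The simulation therefore does not cover genes as dim as these. Python 3.11.15, pandas 2.3.3 and numpy 2.4.6 were used.

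The members and lists were chosen with earlier results of these data known. Named were all members, up to 4 genes per list with at least 2-fold differences (otherwise the largest), the 5 genes most like the member farthest from control, and genes said to be chosen after their values were seen or given as relatives or partners of a member. Alternatives in scaling, floor and probe set were tried.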

Additional observations from a re-analysis of the deposited data

Results flagged for a closer look

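Bag3 lay above control with B16 (0.50 on the log2 scale) and below it with LLC (−0.46). With 1 array per group this difference between the models was not tested, and the second Bag3 probe set did not show it.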

How the results depend on the processing

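With array factors set by the arrays' medians, the median of all genes moved by 0.106 in the B16-bearing lung against control and by 0.119 against the LLC-bearing lung, and the member medians became 0.12 and 0.29; relative to the shift of all genes they differed from the report's medians by under 0.1. Across the other settings the member medians were −0.06 to 0.03, −0.03 to 0.02 and 0.12 to 0.22 in the order of the report. The count of members at least 2-fold different was 1 in place of 0 in the LLC-bearing lung with those factors, with quantile normalization and with the values as deposited (Dnajb1), and 1 between the tumour-bearing lungs with those factors (Bag3). At 1.5-fold, added after the values were seen and counted only with the factors and floor of the report, the counts were 1, 1 and 2. Floors at the 60th percentile and at signals of 10 and 100 left the count at 0. Of 30 member differences 3 changed sign with the factors from all probe sets (Hspa1a, Hspa5 and Hspa8) and 1 with quantile normalization (Hspa8), each in 1 comparison and from near 0. List medians moved by over 0.1 in 14 of 21 cases with those factors, in 2 with the probe sets of a gene averaged (TRiC and prefoldin to −0.37 and endoplasmic reticulum genes to −0.20, both with B16 against control) and in 1 with each of the floors at the 60th percentile and at 100 (Hsp90 co-chaperones to −0.09 with LLC against control). No paired analysis was possible because each group has 1 array.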
